A study of Mus musculus with 3 samples.

Results

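The set described here is named for Treg suppression and surface marker genes and holds 10 of 21887 protein-coding genes. They are Entpd1, Nt5e, Lrrc32, Nrp1, Gpr83, Klrg1, Ebi3, Gzmb, Rgs1 and Capg. Rgs1 encodes a GTPase activator and Capg an actin filament capping protein, neither of them a surface marker. All 10 genes were taken by name. A Tcf1 peak was assigned to a gene when the peak's midpoint lay in the gene's span on the mm10 build. Otherwise it went to the nearest protein-coding gene within 100 kb. A Treg peak was assigned to 0 of the 10 genes, against 12.3% of all protein-coding genes. A conventional peak was assigned to 3 of them, Capg, Gzmb and Rgs1, against 16.3% of all protein-coding genes. These assignments came from 4 peaks with no counterpart in the Treg list, which was also true of 2527 of all 4519 conventional peaks. For the other 7 genes, the nearest peaks of both lists fell to other genes or, for Nrp1 in the conventional list, to no gene.

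Tcf1 occupancy was mapped by sequencing DNA that an antiserum against Tcf1 had precipitated from fixed, sonicated chromatin. Treg cells (TCRb+, CD4+, CD25+, Foxp3-Cre-GFP+) and conventional CD4 T cells (TCRb+, CD4+, CD25-, Foxp3-Cre-GFP-) were sorted from spleens of wild-type mice aged 8 to 10 weeks that carried the Foxp3-Cre-GFP reporter in both groups, and each cell type gave 1 library and 1 peak list. A library of Tcf1-deficient CD4 T cells, from mice with the genotype CD4-Cre+ Tcf1 fl/fl, was not analysed here. The number of animals per library was not stated, and in all 3 libraries the immunoprecipitated DNA was amplified by 18 to 21 PCR cycles. The Treg list held 3402 peaks and the conventional list 4519, of which 56.9% (95% Clopper-Pearson interval 55.2% to 58.6%) and 42.8% (41.3% to 44.3%) overlapped a peak of the other list. These intervals cover counting error only. The lists carry coordinates but no read counts, so the depth is unknown, no replicate spread can be given, and every comparison below is a description of 2 lists without a test. A gene with no peak in a list is a gene for which no region passed the authors' calling and filtering, which does not show that Tcf1 was absent there. Peak lists hold no expression, so the labelled cell types could not be checked against marker genes.

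Tcf1, encoded by Tcf7, is an HMG-box factor that binds DNA directly, recruits beta-catenin or Tle corepressors, and is abundant in naive and memory-like T cells. Treg cells restrain other T cells by several routes. They degrade extracellular ATP to adenosine, present latent TGF-beta, release inhibitory cytokines, kill target cells with granzymes, and carry receptors that set where they go and which cells they touch. The set includes genes of each of these routes.

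**Figure D1:**
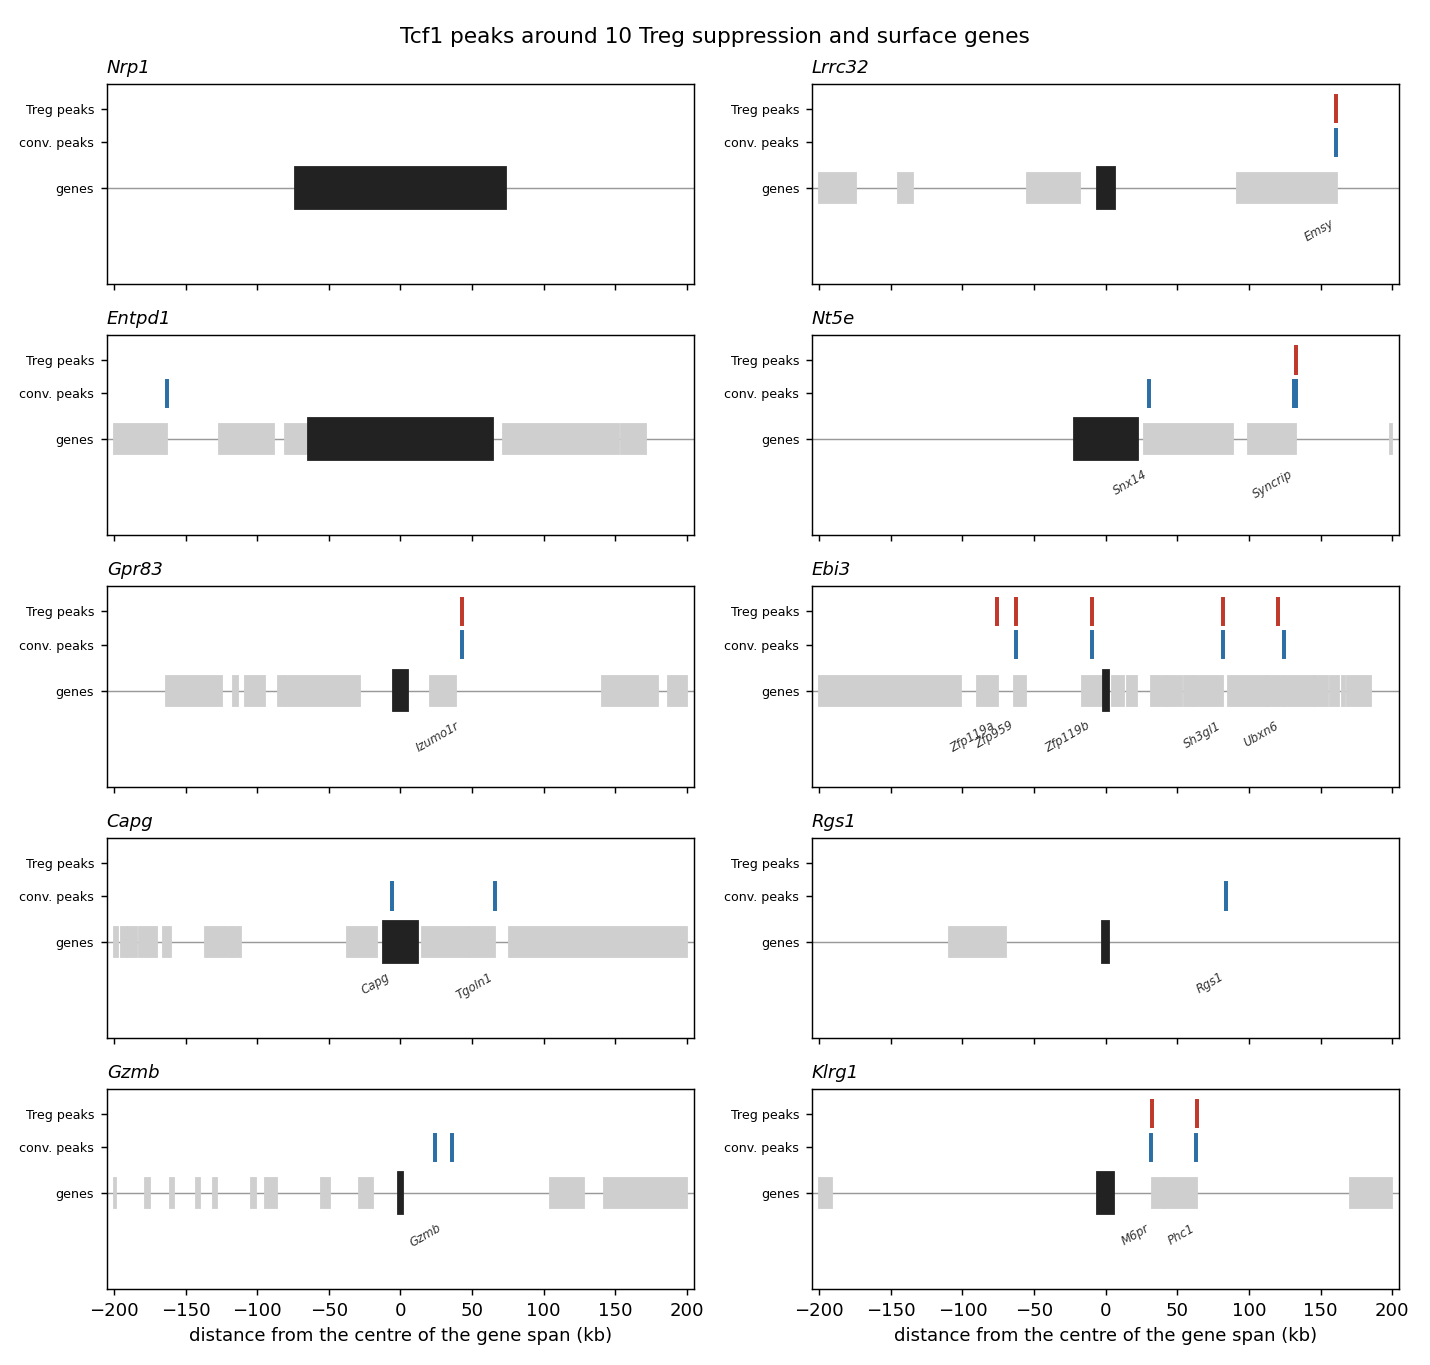
Each panel shows 200 kb to either side of the centre of a gene's span, with distance from that centre in kb on the horizontal axis, Treg peaks as red ticks above conventional peaks as blue ticks, the named gene as a black box and other protein-coding genes as grey boxes. Names in italics below the gene boxes, where shown, give the gene to which the peaks were assigned, and no red tick falls in or next to a black box except near Ebi3, where the peak was assigned to Zfp119b.

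Capg, which encodes an actin filament capping protein, was the only one of the 10 genes with a peak inside its span, and that peak was in the conventional list. The span (chr6:72538282-72562983, 24702 bp) held no Treg peak, and the nearest Treg peak (chr6:72954816-72955117) lay 391983 bp away near Tmsb10, which encodes another actin-binding protein. The conventional peak (chr6:72544523-72544956) was 434 bp wide, and 48.5% of conventional peaks were at least as wide. It therefore sat in the middle of its list by width. It lay 4908 bp before the start site of the RefSeq promoter window, within the annotated span, which begins before that window. A further conventional peak, 53707 bp from Capg and inside Tgoln1, was also absent from the Treg list. Tcf7l1, which encodes a relative of Tcf1, lay 63388 bp from Capg and had no assigned peak in either list.

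The RefSeq promoter window of Capg (GRCm38.p6, chr6:72549397-72549696, plus strand), 250 bases before to 50 bases after the start site, is shown because the conventional peak within the Capg span fell outside it. Neither list had a peak there.
Capg: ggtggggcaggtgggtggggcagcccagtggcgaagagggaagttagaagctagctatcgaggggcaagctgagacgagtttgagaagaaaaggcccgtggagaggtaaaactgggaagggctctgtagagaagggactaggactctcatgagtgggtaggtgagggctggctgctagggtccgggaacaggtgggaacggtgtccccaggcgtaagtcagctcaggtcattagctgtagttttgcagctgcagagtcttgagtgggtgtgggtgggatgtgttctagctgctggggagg

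Gzmb encodes granzyme B, the serine protease that Treg and cytotoxic cells deliver into target cells. The span (chr14:56258836-56262334, 3499 bp) had no Treg peak closer than 314284 bp, and that peak (chr14:56576395-56576841) lay inside Parp4. The conventional list had 2 peaks assigned to Gzmb, at 22312 bp (chr14:56284479-56284814) and 33952 bp (chr14:56296122-56296450) from the span. Both lay on the side of the start site, away from the other granzyme genes. They were narrow for their list, at 336 and 329 bp, with 78.5% and 81.0% of conventional peaks at least as wide. The 4 other granzyme genes within 100 kb, Gzmc, Gzmf, Gzmn and Gzmg, had no assigned peak in either list. When both lists were held to the same length by width, both Gzmb peaks dropped out.

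The promoter window of Gzmb (chr14:56262285-56262584, minus strand) is shown as the window on the side of those upstream peaks, and no peak of either list overlapped it.
Gzmb: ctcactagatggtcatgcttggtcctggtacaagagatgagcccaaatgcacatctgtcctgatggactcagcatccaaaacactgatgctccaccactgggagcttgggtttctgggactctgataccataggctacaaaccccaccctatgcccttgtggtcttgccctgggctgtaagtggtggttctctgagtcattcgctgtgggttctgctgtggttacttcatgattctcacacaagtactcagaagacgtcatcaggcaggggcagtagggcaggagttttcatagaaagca

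Rgs1 encodes a GTPase activator that shortens chemokine receptor signalling. The span (chr1:144244669-144249104, 4436 bp) had its nearest Treg peak at 240413 bp (chr1:144004119-144004393) and its nearest conventional peak at 81703 bp (chr1:144330597-144331018). Only the conventional peak was assigned to Rgs1, and it was the assignment closest to the 100 kb limit among the 4 peaks. Just beyond that limit lay a Treg peak 110391 bp from Nt5e, which was inside Syncrip and so would fall to that gene under any limit. The nearest Treg peak to Rgs1 was at its relative Rgs2, 107 bp from the Rgs2 span, where the conventional list had a separate peak 2565 bp away. The stretch without a Treg peak around Rgs1 measured 4.17 Mb between flanking midpoints, against 0.324 Mb in the conventional list. The peak assigned to Rgs1 bounds the conventional stretch at its higher-coordinate end, so the contrast rests on that peak. Such stretches were not measured over all genes.

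The promoter window of Rgs2 (chr1:144004100-144004399, minus strand) is shown because it was overlapped by the Treg peak nearest to Rgs1 and by no conventional peak.
Rgs2: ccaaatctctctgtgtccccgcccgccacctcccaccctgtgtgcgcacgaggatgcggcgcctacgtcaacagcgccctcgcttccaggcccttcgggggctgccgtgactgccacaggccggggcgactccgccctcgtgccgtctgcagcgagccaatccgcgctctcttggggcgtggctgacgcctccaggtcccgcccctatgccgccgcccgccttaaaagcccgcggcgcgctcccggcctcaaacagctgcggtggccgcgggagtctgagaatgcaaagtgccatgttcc

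The 3 assignments depended on the rule. With a 20 kb or 10 kb limit, or among the widest 50% of peaks of each list, Capg alone kept a conventional peak. The same held when genes of any type were allowed, where the Rgs1 peak went to a pseudogene 18371 bp away and the Gzmb peaks to a pseudogene 7689 and 19329 bp away. At equal list lengths Capg and Rgs1 kept theirs.

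Entpd1 and Nt5e encode CD39 and CD73, the surface enzymes that convert extracellular ATP to AMP and AMP to adenosine. Neither gene had an assigned peak, and for both the conventional list came closer than the Treg list. Around Entpd1 (chr19:40612366-40741602, 129237 bp) the nearest Treg peak lay 612955 bp away in Pik3ap1, and the nearest conventional peak lay 98625 bp away. No Treg peak was found within 500 kb of Entpd1, as for 23.9% of all protein-coding genes. The conventional list had 4 peaks there. With no Treg peak in that stretch they could not be shared, and all of them were conventional-only. Nt5e (chr9:88327609-88372089, 44481 bp) had its nearest Treg peak at 110391 bp (chr9:88482171-88482790) and its nearest conventional peak at 8171 bp (chr9:88380098-88380422). The Treg peak was among the widest of its list, with 9.99% at least as wide. It overlapped the start of Syncrip, an RNA-binding protein gene, together with an 830 bp conventional peak. The conventional peak nearest to Nt5e was narrow, at 325 bp with 82.3% of its list at least as wide, lay inside the neighbour Snx14, and had no Treg counterpart.

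The promoter window of Syncrip (chr9:88482348-88482647, minus strand) is shown as the site of the Treg peak nearest to Nt5e, overlapped by both lists.
Syncrip: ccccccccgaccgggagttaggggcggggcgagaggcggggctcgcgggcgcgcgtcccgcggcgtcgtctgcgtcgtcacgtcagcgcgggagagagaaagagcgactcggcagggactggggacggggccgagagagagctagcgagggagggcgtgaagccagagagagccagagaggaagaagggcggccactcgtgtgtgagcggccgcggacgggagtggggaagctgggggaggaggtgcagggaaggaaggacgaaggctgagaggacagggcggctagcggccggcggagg

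Of the 4 receptor and anchor genes, 3 had nearest peaks that were the same region in both lists. Lrrc32 encodes GARP, which holds latent TGF-beta on the cell surface. Its span (chr7:98489305-98501831) lay 154579 bp from the nearest Treg peak and 154857 bp from the nearest conventional peak, and these overlapped each other at the start of Emsy. Gpr83, a G-protein-coupled receptor gene known as a Treg marker, had its nearest Treg peak at 37388 bp (chr9:14907963-14908391) and its nearest conventional peak at 37361 bp (chr9:14907826-14908474). Both were assigned to Izumo1r, which encodes the Treg surface marker FR4, and lay 4226 and 4199 bp from the Izumo1r span. Klrg1, the gene of an inhibitory lectin-like receptor for cadherins, had its nearest Treg peak at 25909 bp (chr6:122308510-122308975) and its nearest conventional peak at 25879 bp (chr6:122308443-122308981), both at the lower-coordinate edge of the M6pr span. A second shared region, 57384 bp from Klrg1 in the Treg list and 57256 bp in the conventional list, lay at the start of Phc1, a Polycomb subunit gene.

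The promoter window of Phc1 (chr6:122340178-122340477, minus strand) is shown because peaks of both lists overlapped it and because it holds the core letters of the motif that TCF/LEF factors bind. Capitals mark CTTTGA or its reverse complement TCAAAG. The other windows printed here, those of Capg, Gzmb, Rgs2, Syncrip, Zfp119b, Zfp959 and Ebi3, do not hold these letters.
Phc1: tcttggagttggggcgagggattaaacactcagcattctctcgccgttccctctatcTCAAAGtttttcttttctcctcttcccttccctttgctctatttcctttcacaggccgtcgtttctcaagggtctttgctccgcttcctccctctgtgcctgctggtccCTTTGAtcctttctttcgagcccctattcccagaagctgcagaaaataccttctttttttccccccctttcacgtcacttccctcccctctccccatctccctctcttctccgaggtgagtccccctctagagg

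Nrp1 encodes neuropilin 1, a co-receptor for semaphorins and vascular endothelial growth factor that marks Treg cells of thymic origin. It was the most isolated of the 10 genes in both lists. Its span (chr8:128358591-128505476, 146886 bp) lay 1490826 bp beyond the nearest Treg peak, itself 62899 bp from its assigned gene Tomm20, and 1636756 bp beyond the nearest conventional peak. These were the last peaks of chromosome 8 in their lists, and 9 protein-coding genes, Nrp1 among them, started beyond them in either list. A nearer Treg peak was found for 92.8% of all protein-coding genes and a nearer conventional peak for 93.3%. Nrp1 also had no protein-coding neighbour within 100 kb.

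Ebi3, which encodes the chain shared by the cytokines IL-27 and IL-35, was the gene with the closest Treg peak. The span (chr17:55952623-55957022, 4400 bp) lay 7511 bp from a Treg peak (chr17:55944844-55945380) and 7440 bp from a conventional peak (chr17:55944978-55945388). The 2 peaks overlapped each other and lay inside Zfp119b, a zinc finger gene whose span overlaps that of Ebi3, so the rule gave them to Zfp119b. Counting every peak within 10 kb of a span, whichever gene was nearest, Ebi3 was the only one of the 10 genes with a Treg peak, against 15.1% of all protein-coding genes. By that count Ebi3, Capg and Nt5e had a conventional peak, 3 of 10 against 21.1%. Ebi3 also had the most crowded surroundings of the 10 genes, with 11 protein-coding neighbours within 100 kb, 4 Treg peaks and 3 conventional peaks.

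The Zfp119b window is shown beside that of Zfp959, since both were overlapped by peaks of both lists and are near-identical in sequence. Over 294 aligned bases 288 were identical (98.0%), and capitals mark bases that differ or have no counterpart within the aligned part. The Zfp119a window, overlapped by a Treg peak alone, was 96.9% identical to that of Zfp119b. The sources used here do not say how reads that match several of these copies were counted, so which copy the peaks near Ebi3 belong to is uncertain. The windows are at chr17:55945210-55945509 on the minus strand (Zfp119b) and chr17:55891843-55892142 on the plus strand (Zfp959).
Zfp119b: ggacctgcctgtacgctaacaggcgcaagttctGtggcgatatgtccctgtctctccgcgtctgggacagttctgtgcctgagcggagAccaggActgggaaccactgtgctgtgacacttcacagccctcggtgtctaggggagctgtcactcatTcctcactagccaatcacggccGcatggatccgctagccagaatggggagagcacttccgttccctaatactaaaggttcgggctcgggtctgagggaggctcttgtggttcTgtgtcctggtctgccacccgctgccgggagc
Zfp959: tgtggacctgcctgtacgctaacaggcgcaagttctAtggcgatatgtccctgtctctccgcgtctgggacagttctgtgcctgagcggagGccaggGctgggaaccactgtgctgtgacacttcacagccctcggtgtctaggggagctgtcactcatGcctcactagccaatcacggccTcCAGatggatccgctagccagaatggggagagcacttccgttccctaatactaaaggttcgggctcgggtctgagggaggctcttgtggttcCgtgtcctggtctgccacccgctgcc
Ebi3 itself (chr17:55952373-55952672, plus strand) had a different window with no peak in either list.
Ebi3: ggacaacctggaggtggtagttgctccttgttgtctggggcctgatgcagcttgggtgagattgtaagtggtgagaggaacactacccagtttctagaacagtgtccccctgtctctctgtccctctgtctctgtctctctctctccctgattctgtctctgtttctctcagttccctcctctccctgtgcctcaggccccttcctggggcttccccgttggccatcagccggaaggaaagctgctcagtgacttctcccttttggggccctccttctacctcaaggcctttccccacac

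Set beside the shares over all protein-coding genes, the counts for the 10 genes are too small to show a direction. A Treg peak was assigned to 0 of 10, against 12.3% of the 21887 genes. A conventional peak was assigned to 3 of 10, against 16.3%. A peak in both lists was assigned to 0 of 10, against 8.17%. Conventional assignments alone were found at 3 of 10, against 8.1%, Treg assignments alone at 0 of 10, against 4.13%, and no peak in either list at 7 of 10, against 79.6%. Each gene is worth 10% of the list, so these shares rest on few genes.

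Distances were then compared without the assignment rule. A Treg peak lay within 100 kb of 3 of the 10 genes (Ebi3, Klrg1 and Gpr83), against 40.1% of all genes. A conventional peak lay within 100 kb of 8 of 10, all but Nrp1 and Lrrc32, against 49.1%. Within 500 kb the counts were 8 of 10 for Treg peaks, against 76.1%, and 9 of 10 for conventional peaks, against 78.3%. The median distance to the nearest Treg peak was 197496 bp over the 10 genes and 160216 bp over all genes. For the nearest conventional peak it was 31620 bp over the 10 genes and 104815 bp over all genes. The conventional list was longer, so distances in bp favour it.

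**Figure D2:**
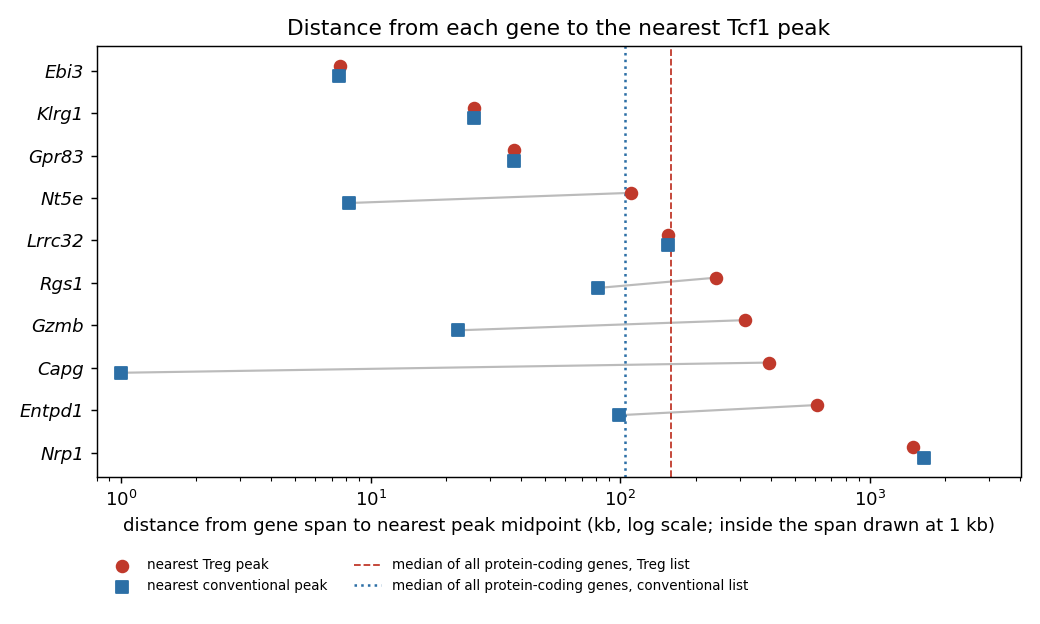
Distance in kb (log scale) from each of the 10 gene spans to the nearest Treg peak (red circles) and the nearest conventional peak (blue squares), with the median over all protein-coding genes as a dashed red line (Treg list) and a dotted blue line (conventional list). For Ebi3, Klrg1, Gpr83 and Lrrc32 the symbols nearly coincide, while for Nt5e, Rgs1, Gzmb, Capg and Entpd1 the Treg peak is farther away.

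The conventional peak was the nearer one for 8 of the 10 genes, against 56.6% of all genes, and the Treg peak for Lrrc32 and Nrp1, against 38.5%. The Treg distance minus the conventional distance ranged from -145930 bp (Nrp1) to 514330 bp (Entpd1). At 4 genes, Ebi3, Klrg1, Gpr83 and Lrrc32, the nearest peaks of the lists overlapped each other, against 28.9% of all genes, and this difference was 71, 30, 27 and -278 bp. At the remaining 6 the nearest regions differed.

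Each distance was also placed among those of all genes in the same list, since the lists differ in length. By this measure 5 genes stood closer to the conventional list and 5 closer to the Treg list, while 37.5% of all genes stood closer to the conventional list. The conventional side held Capg (70.8% of genes had a nearer Treg peak and 0.0% a nearer conventional peak), Gzmb (65.8% and 27.2%), Entpd1 (80.0% and 48.8%), Nt5e (42.2% and 20.2%) and Rgs1 (59.5% and 45.2%). The other 5 differed less, with Ebi3 at 14.1% and 19.8%, Klrg1 at 21.2% and 28.7%, Gpr83 at 24.8% and 32.9%, Lrrc32 at 49.2% and 57.5%, and Nrp1 at 92.8% and 93.3%. At Ebi3, Klrg1, Gpr83 and Lrrc32 the nearest peaks of the lists overlapped each other. At such near-equal distances fewer genes have a nearer peak in the shorter Treg list. Their place on the Treg side therefore cannot be read as a preference for the Treg list, and its cause was not tested.

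**Figure D3:**
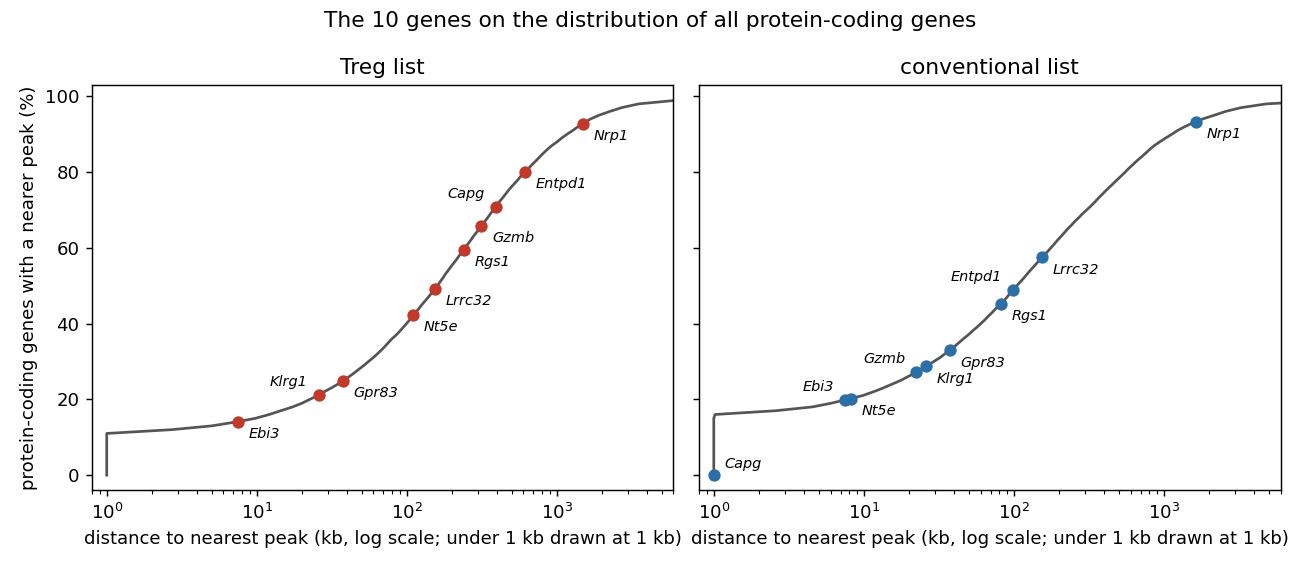
The grey curves give, for the Treg list (left) and the conventional list (right), the percentage of protein-coding genes with a peak nearer than the distance on the horizontal axis (kb, log scale), and the points mark the 10 genes. In the Treg list the points spread from 14.1% (Ebi3) to 92.8% (Nrp1), and in the conventional list 9 of them lie below 60%.

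The nearest Treg peak was a region shared with the conventional list for 8 of 10 genes, Nrp1 and Rgs1 being the exceptions, against 53.5% over the nearest Treg peaks of all genes. The nearest conventional peak was shared for 4 of 10, against 41.1%. The 37 protein-coding neighbours within 100 kb of the 10 genes carried a Treg peak in 9 cases (24.3%, against 12.3% of all protein-coding genes) and a conventional peak in 11 (29.7%, against 16.3%). Neighbours of Ebi3 supplied 4 of the 9 and 3 of the 11. Among them were Zfp119b and Zfp959 in both lists and Zfp119a in the Treg list. The windows of these genes are near-identical, and which copy the peaks belong to is uncertain. No gene with an assigned peak pattern like that of Gzmb, with 2 conventional peaks and none shared, was among the partner genes described next, while 119 protein-coding genes had it. The pattern of Capg and Rgs1, 1 conventional peak and none shared, was found at 1593 other genes, among them Ikzf2, Lag3, Il27ra, Nrros and Capza1.

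The partner genes were 58 genes whose products act with the 10 genes or are other Treg suppression and surface genes. A Treg peak was assigned to 20 of them (34.5%), against 12.3% of all protein-coding genes. A conventional peak was assigned to 21 (36.2%), against 16.3%. The 16 genes with both stand against 8.17% of all protein-coding genes. Among 18 other Treg genes, 9 had a Treg peak and 9 a conventional peak, 7 of them both. Izumo1r, Il2ra (the CD25 chain), Ctla4 and Tnfrsf18 (inhibitory and costimulatory receptors) and Ccr8 (a chemokine receptor) each had 1 shared peak. Ikzf4 (Eos) and Tigit had 2 Treg peaks and 1 conventional peak. Il10, an inhibitory cytokine, had 1 Treg-only peak 26185 bp from its span, and Ikzf2 (Helios) 1 conventional-only peak. Several of these values had been seen before the list was drawn up.

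Partners that act in the same steps as the 10 genes differed by set. Beside Entpd1 and Nt5e, the ATP-gated channel gene P2rx7 had 1 peak, shared and inside the gene, and the other 5 adenosine and ATP genes had none. Beside Lrrc32, its cargo gene Tgfb1 had 1 shared peak at its promoter window, and Itgb8, which encodes the integrin chain that releases the cytokine, had none. Beside Ebi3, Il12a (the partner chain of IL-35) had 1 Treg-only peak 55895 bp away, and Il6st (gp130, a receptor chain) had 3 Treg and 2 conventional peaks, 2 of them shared. None of 5 neuropilin ligands and co-receptors had a peak in either list. Beside Gzmb, Srgn, which encodes the granule proteoglycan serglycin, had 1 Treg peak and 2 conventional peaks, 1 of them shared, and Prf1 (perforin) had none.

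Of the 9 partner sets, the one around Rgs1 had the highest share of genes with an assigned peak in each list. All 5 of its genes had a Treg peak (Rgs2, Rgs3, Rgs10, Rgs16 and the G-protein gene Gnai2) and 4 had a conventional peak. Over all protein-coding genes these shares were 12.3% and 16.3%. The set is small and was drawn up with earlier results of these data known, so its shares cannot stand for Rgs genes in general. Rgs13, an Rgs gene 67297 bp from Rgs1, was not in the set and had no assigned peak in either list. The Treg peaks of Rgs3 and Rgs16 lay 53830 and 16799 bp from their spans. Rgs10 had 2 Treg peaks and 1 conventional peak inside the gene, with 1 shared. Rgs3 had 1 Treg and 3 conventional peaks, with 1 shared. Among the lectin-like receptor and cadherin genes beside Klrg1, Klrb1c alone had peaks, 1 Treg and 3 conventional, with 1 shared. Of the actin genes beside Capg, Capza1 had 1 conventional-only peak at its promoter window.

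**Figure D4:**
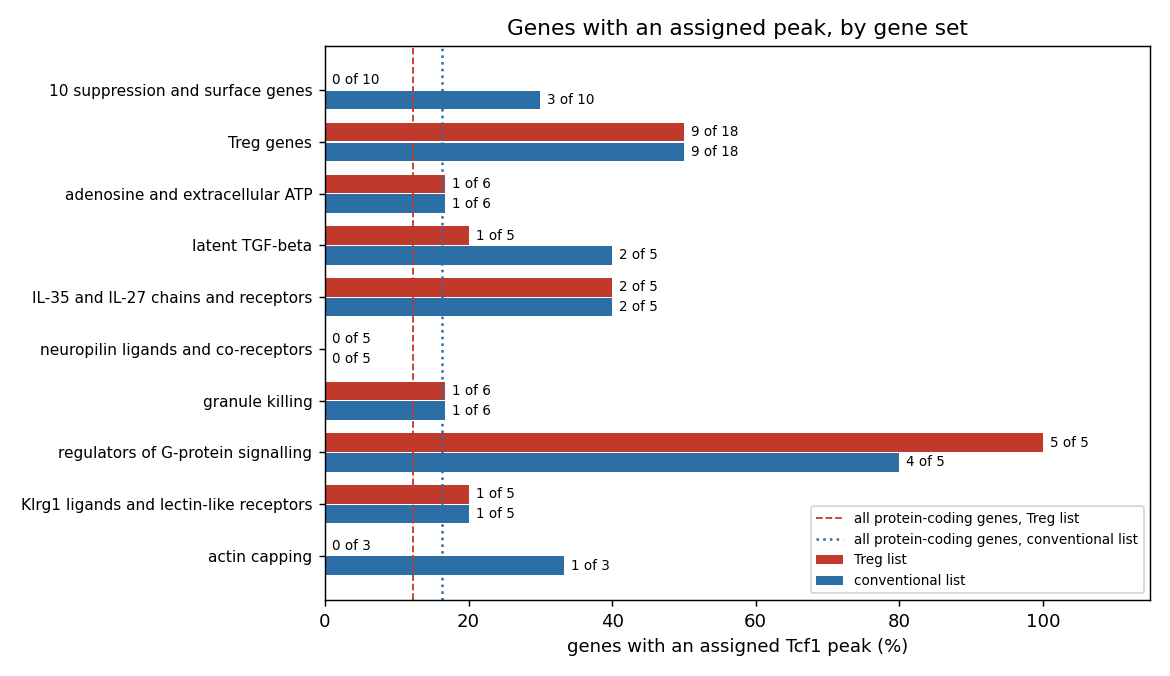
Percentage of genes with an assigned Tcf1 peak in the Treg list (red bars) and the conventional list (blue bars) for the 10 genes and for each set of partner genes, with the share over all protein-coding genes as a dashed red line (12.3%) and a dotted blue line (16.3%), and counts beside the bars. The 10 genes show 0 of 10 and 3 of 10, and the 18 other Treg genes 9 and 9.

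Promoter windows were given for 7 of the 10 genes, 8 windows in all, since Entpd1 has a pair of start sites. None was overlapped by a Treg peak, against 7.11% of 17492 genes with a window, or by a conventional peak, against 11.3%. None of the 8 windows held CTTTGA or TCAAAG on either strand, which 14.4% of all 21263 protein-coding windows do. These letters were in 15.8% of windows overlapped by a Treg peak, 14.4% of those overlapped by a conventional peak, 17.9% of those overlapped by both and 14.5% of those overlapped by neither. The longer form CTTTGATC or GATCAAAG, which contains the shorter one, was also in none of the 8 and in 0.842% of all windows. The longer form was found in 2.63% of 1407 windows overlapped by a Treg peak and in 1.71% of 2224 overlapped by a conventional peak. It was in 3.69% of 921 overlapped by both and in 0.744% of 18553 overlapped by neither. Windows overlapped by both are counted in the share of each list. They made up 34 of the 37 Treg windows and 34 of the 38 conventional windows with the longer form. The higher shares therefore rest on windows of both lists. The Phc1 window printed above holds the longer form. A match is a description of letters, and their absence from these windows says nothing about sites elsewhere in a gene.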

How the data were processed

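The authors deposited 1 peak list for each library, with chromosome, start and end alone and no score, so width was used only to rank peaks within a list. FastQC, Bowtie2 2.3.4.1, MACS2 2.1.1 and mm10 appear in the submitters' processing notes, with no role given. The lists are named as filtered. The filter, any control library and the treatment of multiply mapping reads are not given.

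Gene spans and promoter sequences are RefSeq's for GRCm38.p6, whose primary chromosomes are those of mm10. All 10 genes and 58 partner genes matched by symbol, and 7 of the 10 had a promoter window. Coordinates are 1-based. Shared peaks overlap by 1 bp or more. Treg-only and conventional-only peaks have no such overlap, and no midpoint in the other list lies within 1000 bp of theirs. Distances run from a gene span to a peak midpoint. Python 3.11.15, numpy 2.4.6, pandas 2.3.3, scipy 1.17.1 and matplotlib 3.10.9 were used, and the assignment, overlap and distance steps were tested on simulated data.

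The 10 genes and the partner lists were chosen with earlier results of these data known. Named are the 10 genes, up to 20 partner genes with the most peaks, and genes to which nearby peaks were assigned. Others were named after their values were seen, and 1 neighbouring gene is not reported here. With 1 library per group, no test was made. Alternatives changed the assignment rule, the overlap rule, the peaks kept and the point from which distance was measured.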

Additional observations from a re-analysis of the deposited data

How the results depend on the processing

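Across 50 alternative values, 39 stayed within 1.5 times the reported value, or at 0 where that was 0, and 11 did not. The count of the 10 genes with a Treg peak stayed at 0 under 7 of 8 settings. It was 1 when every peak within 10 kb of a span was counted, as was the count with a peak in both lists (Ebi3 in each case). The count with a conventional peak was 1 with a 20 kb limit, with a 10 kb limit, with genes of any type and among the widest 50% of peaks of each list (Capg in each case). By construction, the shorter limits drop distant peaks, genes of any type admit pseudogenes as nearer genes, and the widest 50% drops narrow peaks. In the widest 50%, 11 partner genes had a Treg peak and 12 a conventional peak. At equal list lengths 20 partner genes had a Treg peak and 16 a conventional peak, so the order of the lists depended on their lengths. Measured from the start site over the 7 genes with one, median distances were 314284 bp (Treg) and 47940 bp (conventional). In the widest 50% the conventional median was 132751 bp, with fewer peaks by construction. The number of shared peaks among those assigned to the 10 genes was 0 under every overlap rule, which was fixed in advance. No Treg peak was assigned to them. The 4 conventional peaks were conventional-only, which already excludes any overlap and any midpoint within 1000 bp. Depth limits cannot be judged from these lists. No paired analysis was possible because each group has 1 library.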
